A study of Mus musculus with 8 samples.

Results

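The genes described here are the nuclear genes of the mouse mitochondrial ribosome that carry the names Mrpl (large subunit) or Mrps (small subunit) followed by a number. They were taken by symbol from a table of 56576 genes, which held 77 of them, 49 named for the large subunit and 28 for the small subunit, on 17 chromosomes. RNA pulled down with haemagglutinin-tagged ribosomes was sequenced from synaptosomes (isolated synaptic terminals) of the cerebral cortex of mice at postnatal day 15. All 8 libraries came from mice with Lhx6-Cre, a driver active in cortical interneurons of the embryonic medial ganglionic eminence and of the preoptic area (MGE/POA), and with both copies of the tagged ribosomal protein gene Rpl22 (Rpl22HA/HA), so the pulldown was directed at those interneurons. The 4 control libraries (replicates 1, 3, 4 and 5) carried intact Erbb4 (Erbb4+/+) and the 4 conditional mutant libraries (replicates 2, 3, 4 and 5) carried loxP-flanked Erbb4 (Erbb4F/F), which encodes a receptor for neuregulins. By the study's methods, replicates are samples from different brains and litters. The study names a pair of sequencing batches, but no label gives the batch of a library, so no within-batch values could be given, and a batch effect and the differences between replicates of a genotype cannot be told apart. The cytosolic ribosome carries the tag and the mitochondrial ribosome does not, so the pulldown was directed at messenger RNAs on cytosolic ribosomes. Other RNA was present too. The oligodendrocyte gene Mbp had 141073 to 535543 normalized counts per library, and bases 68 to 957 of the mitochondrial chromosome had 28223 to 136645. No library without pulldown or without Cre was among the 8, so whether reads of the 77 genes came from tagged ribosomes was not tested.

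Mitochondria keep a small genome that encodes a few subunits of the respiratory chain, and these are translated inside the organelle by a ribosome of its own. The ribosomal RNAs of this mitoribosome come from the mitochondrial genome, whereas all its proteins are encoded in the nucleus, made in the cytosol and imported. The small subunit reads the messenger RNA, and the large subunit joins amino acids and feeds the growing chain towards the inner membrane. Synaptic terminals are rich in mitochondria, and fast-spiking interneurons are known for a high energy demand.

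All 77 genes passed the filter on low values, which asked that the mean of 1 or both genotypes reach 10 normalized counts and left 31171 genes of the table. Their values ran from 97.7 to 3944 normalized counts (reads on the constitutive regions of a gene divided by 1 size factor per library). Reads on genes ran from 51010687 to 80226984 per library, and a member's counting error in a library, with reads taken as independent, had a median of 3.49% and a maximum of 11.3%. The coefficient of variation between replicates had a median of 38.6% in controls and 16.1% in mutants. Erbb4 itself had 1640, 5377, 4306 and 3034 normalized counts in control replicates 1, 3, 4 and 5 and 1711, 1648, 1233 and 1048 in mutant replicates 2, 3, 4 and 5. The library labelled control replicate 1 was thus within the range of the mutants, and the other controls were above it. Of 14 markers of MGE/POA interneurons, 13 were detected in every library. Nkx2-1, a factor of the progenitors that cortical interneurons are known to switch off, was at 0 in 5 of 8 libraries and reached 21.4 at most. The summed level of the 13 was highest in control replicate 3 (801632) and lowest in mutant replicates 4 and 5 (104736 and 62447). Markers of oligodendrocytes (10 genes), astrocytes (10), microglia (10), blood vessel cells (10) and excitatory neurons (10) were detected in every library too, and none was at 0. In such bulk samples, fewer cells of a type and less RNA per cell cannot be told apart.

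Promoter sequences from RefSeq are shown first, because a set of factors is known to control nuclear genes of mitochondria together. Nuclear respiratory factor 1 (NRF-1), the ETS factor GABP (also called NRF-2) and YY1 are the best known. A promoter (250 bases before to 50 after the start, GRCm38.p6) was available for 68 of the 77 genes, and 42 of these held the letters of at least 1 of the 3 motifs on either strand. The NRF-1 letters, GCGC followed after any 2 bases by GCGC, stood in 14 of the 68 promoters (20.6%), compared to 12.4% of the other genes tested and 7% of all promoters. The ETS letters CCGGAAG stood in 26 (38.2%), compared to 16.2% and 9.93%. The YY1 letters ATGGCGGC stood in 12 (17.6%), compared to 4.48% and 2.6%. The letters TATAAA of a TATA box stood in 5 (7.35%), compared to 9.7% and 15.7%. The following stretches show the motif letters, in capitals, upstream of the start of 3 genes that were called lower in the mutants and of Mrpl3, which was not called. A match of letters does not show that a factor binds there.
Mrpl12, NRF-1, chr11:120484546-120484575, plus strand: tattgtctccGCGCCTGCGCgtcgcaccgc
Mrpl45, NRF-1, chr11:97315586-97315615, plus strand: gaagcctcctGCGCAGGCGCagctggctct
Mrpl45, NRF-1, chr11:97315668-97315697, plus strand: tggtttcattGCGCACGCGCgaacccactg
Mrps18a, ETS, chr17:46110967-46110996, plus strand: acacccctgctCCGGAAGcggaagtgcaca
Mrpl3, ETS, chr9:105053238-105053267, plus strand: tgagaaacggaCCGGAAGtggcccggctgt
The NRF-1 letters lay 81 bases before the start of Mrpl12 and 120 and 38 bases before that of Mrpl45. The ETS letters lay 26 bases before the start of Mrps18a and 19 before that of Mrpl3. Of the 9 genes called lower that had a promoter sequence, 5 held NRF-1, ETS or YY1 letters.

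The question the comparison addresses is whether loss of Erbb4 from these interneurons changes the ribosome-bound messenger RNAs found at their synapses. All 77 genes had a log2 fold change below 0 (mutants over controls), as did 75 to 76 with quantile, TMM, edgeR or DESeq2 scaling but 68 with library weights, and 13 were called lower and 0 higher by limma at the study's thresholds (unadjusted p up to 0.05, fold of 1.5 or more). Over all genes tested, 46.6% had a log2 fold change below 0, 3.17% were called lower and 3.98% higher. The median log2 fold change of the 77 genes was -0.53, compared to 0.06 over all genes tested. An unadjusted p under 0.05 was reached by 16 of the 77 (8.33% of all genes tested). None had an adjusted p under 0.05, and the smallest was 0.58 (limma, Benjamini-Hochberg), whereas 0.0449% of all genes tested reached it. On the recovered reads, edgeR called 19 of the 77 lower (3.87% of all genes) and DESeq2 23 (5.05%), and the 13 called by limma were called by all 3 tools.

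The libraries labelled control replicates 1 and 3 stood apart from the other 6 in these genes. Both were above each of the other 6 in 72 of the 77 genes, an arrangement that 14% of all genes tested showed. The exceptions were Mrps26, Mrpl50, Mrpl1 and the rows Mrpl53 // Ccdc142 and Mrps23 // Cuedc1, each of which joins a mitochondrial ribosomal protein gene with a neighbour. The mean of control replicates 1 and 3 was a median of 1.90 times that of control replicates 4 and 5, with a range from 0.948 to 3.94 over the 77 genes. At least 1 of control replicates 4 and 5 lay within the range of the mutants in 63 genes, and both did in 30. The summed level of the 77 genes was 126864, 109497, 65720 and 65184 in control replicates 1, 3, 4 and 5 and 66870, 64466, 61419 and 57637 in mutant replicates 2, 3, 4 and 5. Control replicates 4 and 5 were therefore between the highest mutant libraries, while control replicates 1 and 3 stood well above them.

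**Figure D1:**
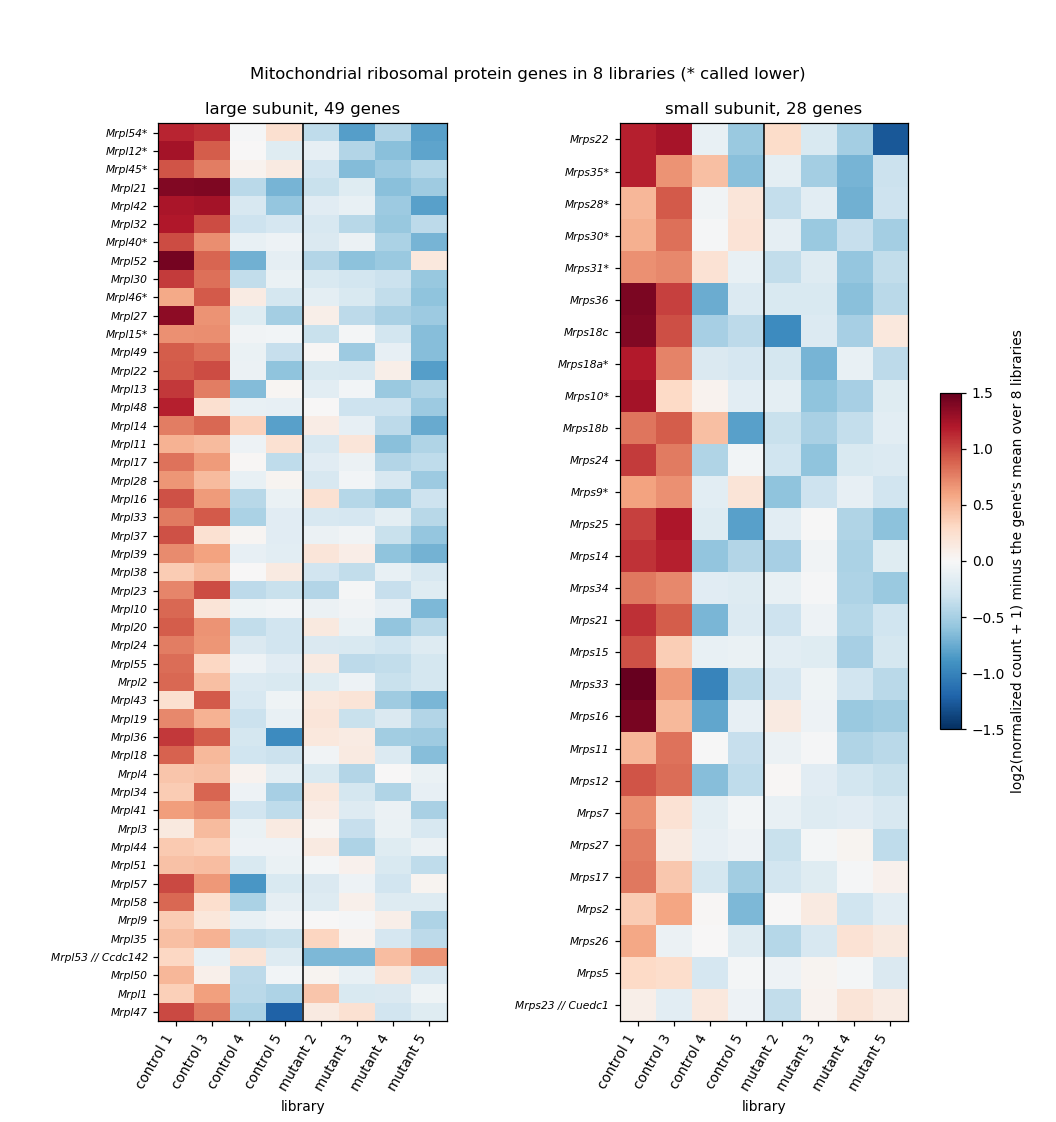
Level of each of the 77 genes in 8 libraries, as log2(normalized count + 1) minus the gene's own mean, with red above and blue below that mean. Controls are left and mutants right of the black line, and genes are ordered by log2 fold change within each subunit by name. Control replicates 1 and 3 are the reddest columns in nearly every row, and control replicates 4 and 5 resemble the mutants.

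Control replicates 1 and 3 also had the lowest limma library weights over all genes tested (0.286 and 0.545, compared to 0.629 to 2.87 in the others) and the fewest genes above 0 (28247 and 31141, compared to 31510 to 34364). A fit without these 2 libraries, chosen after the data were seen, was therefore set beside the fit of all 8. Without them 1 of the 77 genes was called lower (Mrpl54) and 0 higher, compared to 1.51% and 2.53% of all genes. An unadjusted limma p under 0.05 was reached by 3 of the 77 genes, Mrpl54, Mrpl45 and Mrps30, and by 5.02% of all genes. The median log2 fold change became -0.05, and 42 of the 77 genes were below 0, compared to 52.4% of all genes. Leaving out control replicate 1 alone left 6 genes called lower (2.06% of all genes) with a median log2 fold change of -0.33, and leaving out control replicate 3 alone left 5 (1.77%) with a median of -0.40. Leaving out control replicate 4 or control replicate 5 gave 30 each (4.93% and 6.35% of all genes), with medians of -0.67 and -0.68. Leaving out mutant replicate 2 or 3 gave 12 each (3.81% and 3.78%), and leaving out mutant replicate 4 or 5 gave 7 each (1.84% and 1.65%).

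In 7 genes, every mutant library was below every control library (2.17% of all genes tested). Of these, 3 (Mrpl54, Mrpl45 and Mrps30) also had an unadjusted limma p under 0.05 without control replicates 1 and 3. That p was reached by 5.02% of all genes in the same fit. Mrpl54, a large subunit protein (chromosome 10 of mm10, 81264714 to 81266928), had 1082, 1044, 482 and 578 normalized counts in control replicates 1, 3, 4 and 5 and 374, 276, 359 and 278 in mutant replicates 2, 3, 4 and 5. The lowest control was above the highest mutant. The 4 controls averaged 797 ± 311 and the 4 mutants 322 ± 52.2 (SD), and the log2 fold change was -1.23 (standard error, SE, 0.32), the lowest of the 77. Its unadjusted limma p was 0.0029 with all libraries and 0.032 without control replicates 1 and 3, where the log2 fold change was -0.73.

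Mrpl45 encodes the large subunit protein that sits at the exit of the peptide tunnel and ties the mitoribosome to the inner membrane (chromosome 11, 97315716 to 97329920). It had 1922, 1699, 1038 and 1095 normalized counts in controls and 820, 633, 683 and 740 in mutants, in the same order of replicates. Again the groups did not overlap, and control replicates 4 and 5 lay closer to the mutants than to the other controls. Its log2 fold change was -0.95 (SE 0.25, unadjusted limma p 0.0031), and -0.57 without control replicates 1 and 3. Mrps30, named for the small subunit but placed in the large subunit by structures of the mammalian mitoribosome (chromosome 13, 118378381 to 118387254), had 2049, 2518, 1405 and 1634 in controls and 1289, 967, 1114 and 996 in mutants. Its log2 fold change was -0.77 (SE 0.23), and -0.48 without control replicates 1 and 3, a fold under 1.5. An annotated transcript on the other strand overlaps exons of Mrps30, and the library kit does not mark strand, so the reads of the pair cannot be told apart.

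**Figure D2:**
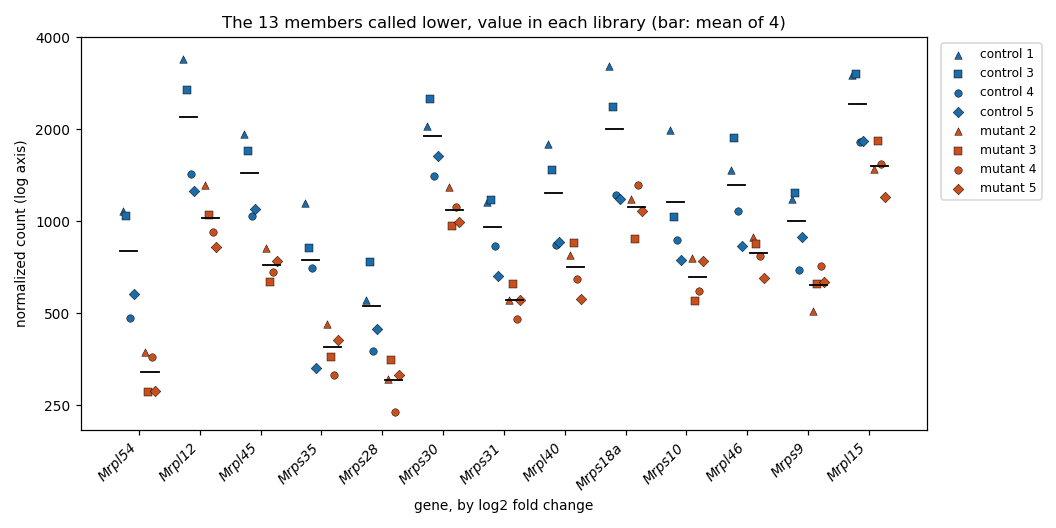
Normalized count (log axis) of the 13 genes called lower in each library, controls in blue and mutants in orange, a marker per replicate and a bar at the mean of the 4 libraries. Control replicates 1 and 3 (blue triangles and squares) are the highest 2 libraries for every gene, and all 4 blue points are above all 4 orange points for Mrpl54, Mrps28, Mrps30, Mrps31 and Mrpl45.

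The other 10 genes called lower were 4 of the large and 6 of the small subunit by name. Mrpl12 forms the flexible stalk to which translation factors are recruited, and is known to bind the mitochondrial RNA polymerase (chromosome 11, 120484636 to 120489065). It had 3386, 2682, 1430 and 1259 normalized counts in controls and 1315, 1050, 922 and 826 in mutants, so control replicate 5 fell between the mutants. Its log2 fold change was -0.99 (SE 0.33), and -0.41 without control replicates 1 and 3. An annotated transcript on the other strand overlaps exons of Mrpl12 as well, and reads of the overlap cannot be told apart. The stalk base protein gene Mrpl10 was not called, with a log2 fold change of -0.47 (SE 0.25), nor was Mrpl11 of the same region, which missed the fold threshold at -0.57 (SE 0.25). Mrpl15, Mrpl40 and Mrpl46 were called lower at -0.64, -0.74 and -0.68. Among these, Mrpl15 had 3006 and 3032 in control replicates 1 and 3 but 1812 and 1824 in control replicates 4 and 5, beside 1199 to 1832 in the mutants.

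Among genes named for the small subunit, Mrps31 and Mrps28 were also called lower with no overlap between the groups. Mrps31 had 660 to 1174 normalized counts in controls and 478 to 624 in mutants, a log2 fold change of -0.75 (SE 0.25). Mrps28 had 377 to 738 in controls and 237 to 351 in mutants, a log2 fold change of -0.77 (SE 0.30). Mrps9, Mrps10 and Mrps35 were called lower at -0.66, -0.72 and -0.83, each with at least 1 control within the range of the mutants. In Mrps35 that control was replicate 5, at 331, which was below 3 of the 4 mutant libraries, whereas control replicate 1 was at 1147. Mrps18a was called lower at -0.72 (SE 0.33), with an unadjusted limma p of 0.0499, and -0.12 without control replicates 1 and 3. It had 3217, 2368, 1215 and 1185 in controls and 1181, 874, 1314 and 1082 in mutants.

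Mrps18a, Mrps18b and Mrps18c are 3 related genes for a protein that has a single gene in bacteria, and the Mrps18a protein is found in the large subunit and the other two in the small subunit. Mrps18b and Mrps18c were not called, with log2 fold changes of -0.67 (SE 0.42) and -0.74 (SE 0.49). Both were low, at 289 ± 123 and 349 ± 217 normalized counts in controls (SD, n = 4), and Mrps18c had 607 and 450 in control replicates 1 and 3 but 163 and 176 in control replicates 4 and 5. Per kilobase of the longest transcript, the controls held 2258 ± 1112 normalized counts of Mrps18a, 268 ± 114 of Mrps18b and 425 ± 264 of Mrps18c (SD, n = 4). Because reads were counted on constitutive regions only, these levels depend partly on the annotated length.

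Mrpl2, Mrpl3, Mrpl4 and Mrpl16, which line the peptidyl transferase region or its surroundings, were not called, with log2 fold changes of -0.43, -0.33, -0.38 and -0.53. Mrpl3 had 1501, 1885, 1265 and 1484 normalized counts in controls and 1381, 1067, 1268 and 1152 in mutants, so control replicate 1 did not stand far from control replicate 5. Mrps12, of the decoding centre, had 1258, 1169, 418 and 501 in controls and 658, 581, 537 and 517 in mutants, so control replicates 4 and 5 were below all mutants. Its log2 fold change was -0.38 (SE 0.37) with all libraries and 0.32 without control replicates 1 and 3. Mrps5 and Mrps7, both near the path of the messenger RNA, had log2 fold changes of -0.14 (SE 0.20) and -0.36 (SE 0.21).

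Other members named for the small subunit showed the same contrast within the controls. Mrps14 had 2138 and 2260 normalized counts in control replicates 1 and 3, 668 and 746 in control replicates 4 and 5, and 710 to 968 in mutants. Mrps22, whose human counterpart is mutated in a mitochondrial disease, had 1222 and 1288, then 503 and 370, and 226 to 663 in mutants, a log2 fold change of -0.86 (SE 0.46) that was not called. Mrps36, which is also known as a subunit of the oxoglutarate dehydrogenase complex, had 844 and 642, then 188 and 273, and 204 to 269 in mutants (log2 fold change -0.74, SE 0.46). Mrps16 and Mrps34 were not called at -0.51 and -0.57, nor Mrps27, a pentatricopeptide repeat protein, at -0.35. Mrps15 had no overlap between the groups, with 998 to 2093 in controls and 766 to 970 in mutants, but an unadjusted p above the threshold and a log2 fold change of -0.55. Mrpl38 had no overlap either, with 1798 to 2485 in controls and 1376 to 1658 in mutants, at a log2 fold change of -0.50, under the fold threshold. Mrpl44, which resembles ribonuclease III, and Mrpl58, a peptidyl-tRNA hydrolase that became part of the large subunit, had -0.30 (SE 0.25) and -0.25 (SE 0.28).

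The log2 fold changes nearest 0 were those of Mrps23 // Cuedc1 (-0.01, SE 0.19), Mrpl47 (-0.05, SE 0.48), Mrpl1 (-0.05, SE 0.34) and Mrpl50 (-0.07, SE 0.23). Mrpl47 had 511, 443, 184 and 110 normalized counts in controls and 282, 299, 210 and 226 in mutants, so the controls lay on both sides of the mutants. Exons of Mrpl47 overlap Actl6a and Ndufb5 on the other strand. Mrps23 // Cuedc1 had 2607 to 3240 in controls and 2249 to 3316 in mutants, and reads of its 2 genes were counted together.

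Per kilobase of the longest transcript, the levels in controls of the 75 genes with a row of their own ran from 41.2 to 2869 normalized counts with a median of 694. Reads were counted on constitutive regions only, but the length is that of the whole transcript. The order of genes therefore depends partly on annotation. The highest were Mrpl28 (2869 ± 718), Mrpl20 (2381 ± 1047), Mrps18a (2258 ± 1112) and Mrpl41 (2097 ± 805, all SD, n = 4), and their ranges of mean ± SD overlapped. In mutants the same 4 had 1948 ± 272, 1624 ± 371, 1259 ± 210 and 1590 ± 271, and Mrps18a was then below Mrpl4 (1465 ± 193). The joined rows were left out, since they hold the reads of a pair of genes. The lowest were Mrps25 (41.2 ± 24.6), Mrpl47 (92.8 ± 58.0) and Mrpl1 (94.7 ± 35.4). Mrps25 has a transcript of 6073 bases, most of it outside a coding sequence of 513 bases, so its level per kilobase depends on which of these lengths is used. Mrpl28 had 3944, 3454, 2303 and 2555 normalized counts in controls and 1709 to 2419 in mutants, and its log2 fold change of -0.53 (SE 0.22) was under the fold threshold. Mrpl20 and Mrpl41 had log2 fold changes of -0.47 and -0.33 and Mrps25 of -0.62 (SE 0.49), none called.

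Most of the 77 genes varied together across the 8 libraries, with control replicates 1 and 3 highest. The correlation of a gene with the median of the other members, on log2 values minus each gene's mean, had a median Pearson r of 0.90. It exceeded 0.9 in 38 of the 77, over 8 libraries, each of which gives both values of a pair and which differ in depth. The lowest r was -0.17, for Mrps23 // Cuedc1. The median deviation of the 77 genes from their own means was 0.84 and 0.68 (log2) in control replicates 1 and 3, -0.16 and -0.18 in control replicates 4 and 5, and -0.16, -0.18, -0.34 and -0.39 in mutant replicates 2, 3, 4 and 5. Over all genes tested it was between -0.08 and 0.13 in every library. The genes named for the large and the small subunit did not stand apart, with median log2 fold changes of -0.50 and -0.59. Both control replicates 1 and 3 were highest in 46 of 49 and 26 of 28 of them. These groups follow the gene names, and the proteins of Mrps30 and Mrps18a are found in the large subunit. A difference between the subunits was not tested.

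Transcript length moved with this pattern. The longest transcripts of the 77 genes had a median of 1339 bases (463 to 7300), with a median coding sequence of 588 bases, compared to a median of 3137.5 bases for 15276 other genes tested that could be matched. Length classes were formed from genes with a mean of at least 100 normalized counts over the 8 libraries. Among 463 other genes with transcripts under 1000 bases, the median deviation was 1.05 and 0.86 (log2) in control replicates 1 and 3. It was between -0.44 and -0.12 in the other libraries. Among 1960 other genes of at least 6000 bases it was -0.54 and -0.21 in control replicates 1 and 3. The 23 members under 1000 bases deviated by 0.95 and 0.87, close to other genes of their length. The 12 members of 2500 to 4000 bases still deviated by 0.70 and 0.57, whereas other genes of that length deviated by 0.08 and 0.04. The median log2 fold change was -0.57 for the 23 shortest members, compared to -0.63 for other genes of that length, and -0.31 for the 12 members of 2500 to 4000 bases, compared to -0.01.

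**Figure D3:**
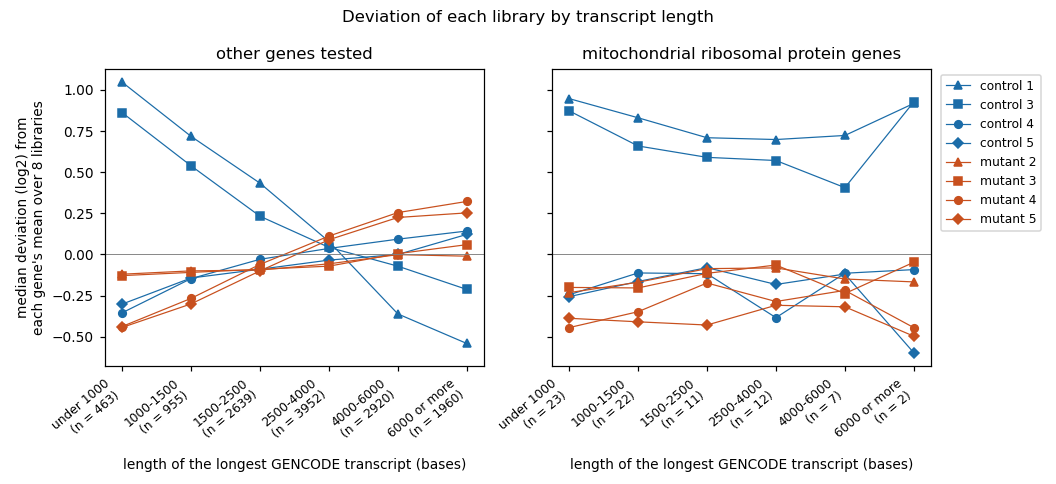
Median deviation (log2) of each library from the genes' own means, by length of the longest GENCODE transcript, for other genes tested (left) and the mitochondrial ribosomal protein genes (right). Controls are in blue and mutants in orange, and genes had a mean of at least 100 normalized counts. In other genes control replicates 1 and 3 go from 1.05 and 0.86 under 1000 bases to below 0 from 4000 bases on, and in the 77 genes they stay at 0.41 or above in every length class, the last of which holds 2 genes.

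With the trend on transcript length removed from each library, 6 of the 77 genes were called lower (3.37% of the genes with a length) and 0 higher (3.54%). They were Mrpl15, Mrpl54, Mrpl45, Mrps30, Mrps35 and Mrpl12. The median log2 fold change was then -0.19, and 58 of the 77 were below 0, compared to 49.7% of the genes with a length. With the trend on coding length removed, 5 were called lower (3.42%) and the median was -0.24. Mrpl54, Mrpl45, Mrps30 and Mrpl12 were called in the fit of all libraries and in both length fits. Both corrections were chosen after the data were seen.

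Genes that act with the mitoribosome were compared through 5 further lists, with 73 genes tested. Of these, 8 were called lower and 2 higher, compared to 3.17% and 3.98% of all genes tested. Among 5 mitoribosome proteins with other names, Dap3, a GTP-binding protein of the small subunit, and Aurkaip1, also of the small subunit, were lower at -0.62 (SE 0.25) and -0.65 (SE 0.27). Dap3 had 5520, 5422, 3435 and 2836 normalized counts in controls and 2356 to 3235 in mutants, with control replicates 1 and 3 again highest. The median of the 5 was -0.57, and -0.14 without control replicates 1 and 3. Mrps6 is part of the row Slc5a3 // Mrps6, whose symbol does not begin with its name. That row was not counted among the 77 and had a log2 fold change of -0.35 (SE 0.34).

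Of 16 mitochondrial translation factors, 2 were called lower, the elongation factor Tufm (-0.59) and the inner membrane insertase Oxa1l (-0.73), and the median was -0.24. Of 26 genes for mitoribosome assembly and ribosomal RNA modification, 3 were called lower and 1 higher, with a median of -0.31. Mrm3, a methyltransferase of the large ribosomal RNA, had 1126, 1190, 1140 and 797 normalized counts in controls and 663, 518, 578 and 557 in mutants. Here control replicates 1 and 3 did not stand apart from control replicate 4, the groups did not overlap, and the log2 fold change was -0.86 (SE 0.22) with all libraries and -0.72 without control replicates 1 and 3. Eral1, a chaperone of the small ribosomal RNA, and Mpv17l2 were lower at -0.63 and -0.71, and the endoribonuclease gene Ybey was higher at 0.64 (SE 0.28). Of 16 mitochondrial aminoacyl-tRNA synthetases, 0 were called lower and 1 higher, the prolyl-tRNA synthetase Pars2 (0.64), with a median of -0.10. Of 10 genes for copying and transcribing mitochondrial DNA, 1 was called lower, the transcription elongation factor Tefm (-0.70), with a median of 0.08.

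**Figure D4:**
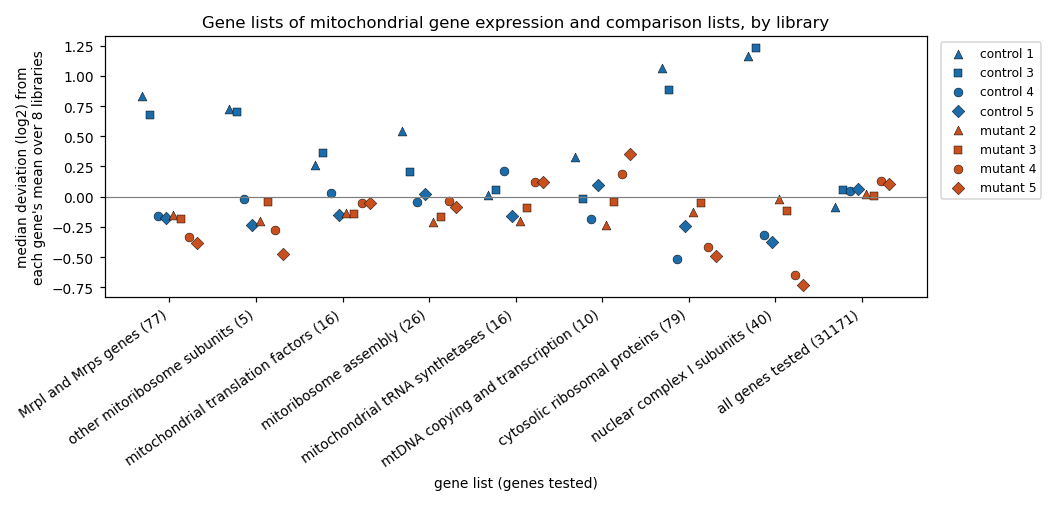
Median deviation (log2) of each library from the genes' own means for 8 gene lists and all genes tested, with the number of genes tested in brackets, controls in blue and mutants in orange. Control replicates 1 and 3 stand at 0.68 or above for structural subunits of both ribosomes and of complex I, and within the range of the other libraries for the mitochondrial tRNA synthetases.

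In cytosolic ribosomal protein genes and nuclear complex I subunits, control replicates 1 and 3 were also the highest libraries by median deviation. Of 79 cytosolic ribosomal protein genes tested, 4 were called lower and 1 higher, compared to 3.17% and 3.98% of all genes tested. The gene called higher was Rpl3l, with a mean of 0 normalized counts in controls and 10.6 in mutants, near the filter of 10. The median of the 79 was -0.61. Control replicates 1 and 3 were both highest in 69, compared to 14% of all genes tested. Of 40 complex I genes, 8 were called lower and 0 higher, with a median of -0.78, and control replicates 1 and 3 were both highest in 39. Their medians without these libraries were 0.09 and -0.03. Their longest transcripts were short as well, with medians of 946 and 934 bases. The medians of the 3 lists were not tested against each other.

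Control replicates 1 and 3 also stood apart in markers of some other cells. They were both highest in 8 of 10 oligodendrocyte and 6 of 10 microglia markers, compared to 14% of all genes tested. The same held for 4 of 10 astrocyte, 2 of 10 excitatory neuron and 0 of 10 blood vessel markers. All 10 oligodendrocyte markers had a log2 fold change below 0, with 3 called lower, compared to 46.6% and 3.17% of all genes tested. Their summed level was 673772 and 362807 in control replicates 1 and 3 and 202878 to 324754 in the other libraries. The summed level of 10 microglia markers was 53208 and 45661, and 26620 to 33070 in the others. The summed level of blood vessel markers was lowest in control replicate 1 (172003). In control replicate 3 it was 271668, within the 262850 to 281863 of the mutants. Of the 10, 4 were called higher in mutants, compared to 3.98% of all genes tested. The 13 interneuron markers had a median of -0.93, with 4 called lower (3.17% of all genes tested), and a summed level of 62447 to 801632. Without control replicates 1 and 3 their median was -0.40, and those of oligodendrocyte, microglia and blood vessel markers were -0.18, -0.0066 and 0.45. In that fit 0 interneuron and 0 oligodendrocyte markers were called lower (1.51% of all genes), and 1 blood vessel marker was called higher (2.53%). The part of cell content, transcript length and library quality in the levels of the 77 genes was not tested.

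Neighbouring genes that start within 500 bases on the other strand gave a comparison at the same genomic place. Of the 77 genes, 18 had such a tested neighbour that is not a mitochondrial ribosomal protein gene, and 2 of these 18 neighbours were called lower and 0 higher, compared to 3.17% and 3.98% of all genes tested. The neighbours had a median log2 fold change of -0.16 and a median transcript of 2678.5 bases, compared to -0.58 and 1251.5 bases for the mitochondrial ribosomal protein genes beside them. Mrpl32 and Psma2, a proteasome subunit gene 168 bases away, were similar at -0.81 and -0.79, as were Mrpl49 and Fau, a gene for a ribosomal protein fused to a ubiquitin-like protein, at -0.64 and -0.63. Mrpl27 and Eme1, 7 bases apart, had -0.67 (SE 0.38) and 0.84 (SE 0.85). Their annotated exons overlap, so reads of the overlap cannot be told apart. Mrpl46 and Mrps11 start 42 bases apart and had -0.68 and -0.48. Control replicates 1 and 3 were both highest in 4 of the 18 neighbours, compared to 14% of all genes tested.

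Counting limits some members. Exons of 21 of the 77 genes overlap those of another annotated gene, in 19 of them on the other strand, and 5 annotated pseudogenes carry a member's name. Whether their reads were shared was not tested. The 13 rows of the mitochondrial chromosome carry no symbol in the table, so the messenger RNAs that the mitoribosome itself translates were not analysed here by name.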

How the data were processed

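RNA from anti-HA pulldowns of cortical synaptosomes was sequenced in 4 control and 4 Erbb4 conditional mutant libraries, with 1 ng of RNA per library. The authors aligned reads to mm10 with STAR 2.4.0 and counted them on constitutive regions of Fast DB genes. The deposited signal is the count of each gene after scaling by DESeq2 size factors, 1 for each library. Every column was matched to its sample by name. Dividing by the smallest value above 0 gave whole reads for 100% of values (tolerance 0.01 of a read), though in control replicate 4 and mutant replicate 5, where 1 read is worth close to 1, rounding would look the same.

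Genes whose mean reached 10 in 1 or both genotypes entered the test, on log2(normalized count + 1) with limma 3.58.1 (lmFit, eBayes with trend; R 4.3.3), adjusted over 31171 genes. Fold changes on this scale understate those of low genes. Calls needed an unadjusted p up to 0.05 and a fold of 1.5 or more. Alternatives were edgeR 4.0.16 and DESeq2 1.42.0 on recovered reads, other pseudocounts, filters and scalings, library weights, a replicate block, leaving out libraries, and removing a lowess trend (span 0.3) on transcript or coding length. Lengths came from GENCODE M21 by symbol, and promoters from RefSeq. The fits were tested on simulated data.

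Named genes were those called, with the most extreme folds or levels per kilobase, without overlap, or chosen for their role. Neighbours of members and Mrps26, Mrps11, Mrpl27, Mrpl32, Mrpl49 and Mrpl53 // Ccdc142 were named after their values were seen. Members, lists and tests were chosen with earlier results of these data known.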

Additional observations from a re-analysis of the deposited data

Results flagged for a closer look

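A library far from the other 3 of its group was looked for in 88 groups of 4 libraries, those of the named genes, Erbb4 and the summed level. Chance alone marks about 1 in 20 such groups, or 4.4 of 88, and 2 were marked. Mutant replicate 5 had 1256 normalized counts of Mrpl10, below the 1836 to 1931 of the other mutants. Mutant replicate 3 had 1059 normalized counts of Mrpl58, above the 875 to 877 of the other mutants. No control library was marked, but the check looks for 1 library far from the other 3. Control replicates 1 and 3 were high together in 72 of the 77 genes, and libraries that are high together hide each other in it. The check therefore does not show that these 2 controls were alike to the others.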

How the results depend on the processing

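The number of genes called lower (13) kept within 1.5 times under 9 of the alternatives planned with all libraries, at 9 to 19 (2.5% to 5.51% of all genes). It was 7 with limma without trend (2.31%) and 23 with DESeq2 (5.05%). At an unadjusted p under 0.05, 16 genes (8.33% of all genes) became 8 (6.05%) and 26 (11.1%). Leaving out control replicate 1 left 70 genes below 0. Leaving out 1 library gave 5 to 30 called lower (1.65% to 6.35% of all genes) and 5 to 32 at that p (4.12% to 12.9%). Without control replicates 1 and 3 there were 1 and 3 (1.51% and 5.02% of all genes). The medians were then -0.051 over all members, -0.0084 for the large and -0.069 for the small subunit by name. Removing the transcript length trend gave 6 and 6 (3.37% and 10.5% of the genes with a length). Removing the coding length trend gave 5 and 10 (3.42% and 12.1%). No alternative called a member higher.

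The deviations of same-numbered libraries correlated at 0.10, 0.098 and 0.082, and no label ties the numbers to a shared litter or batch, so the numbers were not taken as pairs. Control replicates 1 and 3 correlated at 0.02 to 0.10 with mutant replicates 2 and 3, as did control replicates 4 and 5 with mutant replicates 4 and 5 at 0.08 to 0.10, and the other combinations at -0.12 to -0.03. Each gene was centred on the mean of its genotype, so the deviations within a genotype sum to 0. Positive values in some combinations therefore force negative values in others, and the signs are not separate results. Whether they go with the sequencing batches was not tested. With a replicate block, 9 genes were called lower (5.51% of all genes, and 5.24% for the 9 with library weights) and 69 were below 0. In that fit 15 had an unadjusted limma p under 0.05 (14.7% of all genes), and the median was -0.38. The 73 genes of the pathway lists gave 8 lower and 2 higher calls in the fit of all libraries (3.17% and 3.98% of all genes). They gave 3 lower and 0 higher with the replicate block (5.51% lower). Limma without trend gave 2 and 1 (2.31% lower), and library weights gave 4 and 0 (5.24% lower). Without control replicates 1 and 3 they gave 2 and 0 (1.51% and 2.53%), and without the transcript length trend 2 and 1 (3.37% and 3.54%). They gave 3 lower without the coding length trend (3.42%), 0 higher with a pseudocount of 10, and 1 higher with quantile normalization or only genes with a length. Leaving out 1 library gave 1 to 11 lower (1.65% to 6.35%) and 0 to 2 higher. The share called higher is not given for every setting.

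Of the 42 named genes, these turned above 0, and the cause was not tested. Mrps23 // Cuedc1 was 0.016 with DESeq2 or TMM, 0.024 with edgeR and 0.028 with quantile normalization. With library weights, Mrpl50 was 0.13, Mrpl1 0.12, Mrpl47 0.26 and Mrps23 // Cuedc1 0.058. With the replicate block, Mrpl58 was 0.018, Mrpl50 0.060, Mrpl47 0.22 and Mrps23 // Cuedc1 0.14. Leaving out 1 library, Mrpl1 ran from -0.22 to 0.15, Mrpl47 from -0.46 to 0.27, Mrpl50 from -0.21 to 0.085 and Mrps23 // Cuedc1 from -0.070 to 0.12. Without control replicates 1 and 3, Mrpl2 was 0.0025, Mrps5 0.070, Mrps18c 0.074, Mrpl20 0.093, Mrps36 0.10, Mrpl41 0.17, Mrpl50 and Mrpl58 0.18, Mrps16 and Mrps25 0.20, Mrps14 0.21, Mrps12 0.32, Mrpl1 0.41 and Mrpl47 0.82. Without the transcript length trend, Mrpl4 was 0.014, Mrpl2 0.034, Mrpl44 0.057, Mrpl20 0.073, Mrpl50 and Mrps12 0.12, Mrpl41 0.21 and Mrps23 // Cuedc1 0.35. Without the coding length trend, Mrps12 was 0.0074, Mrpl58 0.040, Mrpl41 0.067, Mrpl1 0.11, Mrpl47 0.19, Mrpl50 0.30 and Mrps23 // Cuedc1 0.33. Erbb4 kept its call under every alternative, from -1.68 to -1.01.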
